A study of Mus musculus with 3 samples.

Results

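The synaptonemal complex is the protein zipper that joins homologous chromosomes in meiotic prophase, and meiotic cohesin holds the sister chromatids on the axis that this zipper is built on. The genes described here are 9 mouse genes chosen by name. Sycp1, Syce1, Syce2 and Tex12 encode the transverse filament and central element, Sycp2, Sycp3 and Hormad1 the lateral element and chromosome axis, and Smc1b and Stag3 are subunits of meiotic cohesin. Of the 16620 genes that could be named on the array, these 9 included 8 with a probe, and all 8 were among the 13484 genes tested. Syce1 was matched to no probe by RefSeq accession, so no value is given for it. The 8 genes were read by 12 probes, of which 11 were well above background on all 6 arrays.

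The samples were gonads of male Cyp26b1-/- embryos of the MCH mouse line at E12.5, E13.5 and E14.5 (days of embryonic development), with 2 single-colour Agilent arrays at each stage, described by the series as biological duplicates. Cyp26b1 encodes the cytochrome P450 that clears retinoic acid from the fetal testis. All 3 stages carried the knockout, and arrays of a control genotype were not analysed here, so each comparison is between stages of the knockout gonad. How the allele was made, which part of the gene it removes and how many embryos gave each RNA are not given in the sources used here.

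In the fetal ovary, retinoic acid and the germ cell factor STRA8 accompany entry of the germ cells into meiosis, and the axis and synaptonemal complex genes are switched on in those cells. Germ cells of a normal fetal testis instead stop dividing and do not enter meiosis at these ages. Axis and cohesin proteins load before synapsis, and the transverse filament and central element follow as homologues pair.

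Values are log2 signals relative to the 75th percentile of the same array, called relative log2 signals below, so 0 is that percentile itself. They can be compared between arrays for 1 probe, not between probes. The E12.5 arrays shared a slide, and the 4 arrays of E13.5 and E14.5 shared a different one, with another scan and another version of the array design. Changes from E12.5 can therefore not be told apart from the slide, and only E14.5 over E13.5 was measured within a slide. The share of probes well above background ran from 65.3% to 70.1% by array, with 0 saturated spots. The targeted gene, Cyp26b1, was read by 1 probe whose place in the transcript is not given, so it does not check the deletion. Its relative log2 signals were 4.96 and 4.73 on the E12.5 arrays, 4.29 and 4.20 on the E13.5 arrays, and 4.27 and 3.83 on the E14.5 arrays.

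Both stages after E12.5 had higher levels of nearly every gene of the group. Of the 8 genes, 7 rose at E13.5 relative to E12.5 and all 8 rose at E14.5 relative to E12.5. On the brightest probe of each gene, the rise over that window ran from 1.51-fold for Syce2 to 11.5-fold for Sycp2. A call here is an adjusted p under 0.05 from limma over all genes. Across the 13484 genes, 18.0% rose at E13.5 and 25.5% at E14.5, each relative to E12.5. The median log2 change of the 8 was 1.75 at E13.5 over E12.5, beside 0.04 over all genes, and 2.10 at E14.5 over E12.5, beside 0.03 over all genes. Between E13.5 and E14.5 none of the 8 passed the threshold, with a median of 0.35 beside -0.01 over all genes. In that comparison 0.0445% of all genes rose, 6 genes in number. At an unadjusted p under 0.05 stood 3 of the 8, which were Sycp1, Sycp2 and Sycp3, and 2489 of all genes. In these bulk RNA samples, more cells of a type and more RNA per cell cannot be told apart.

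**Figure D1:**
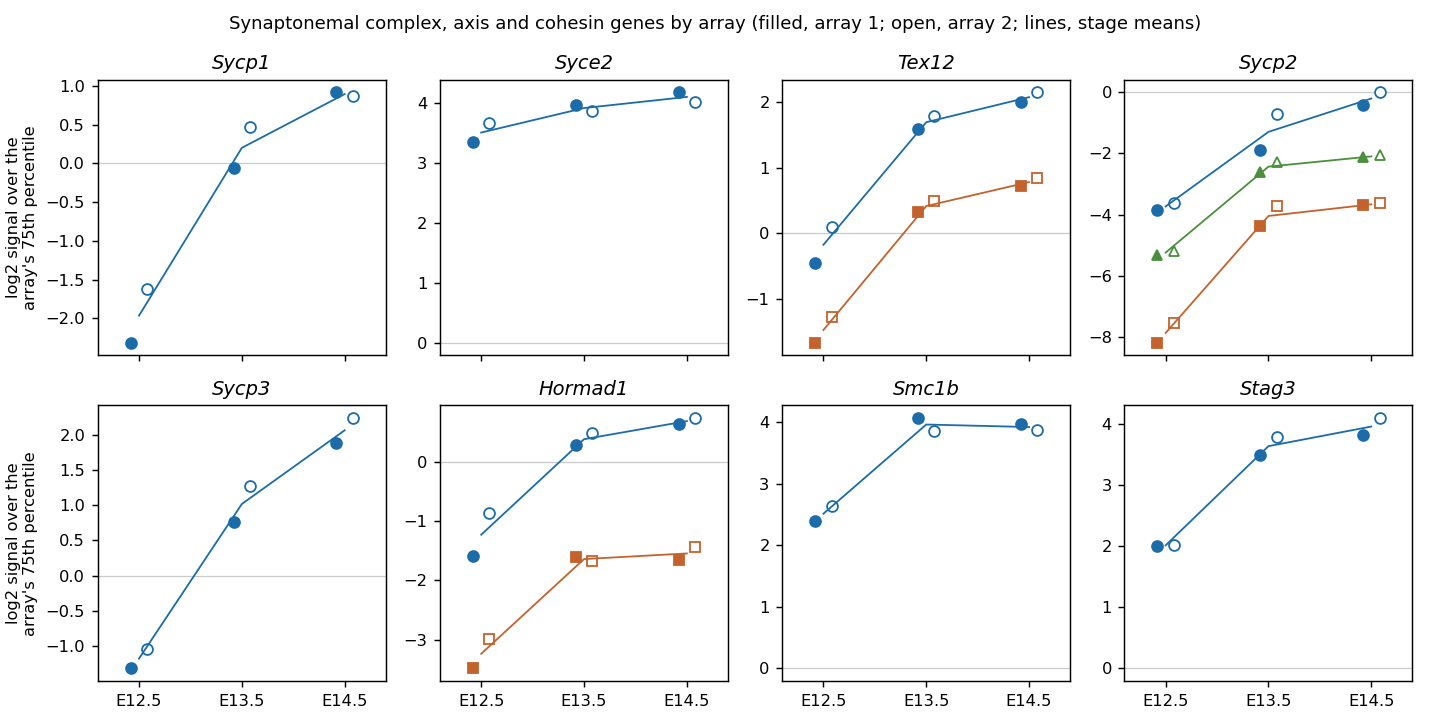
Relative log2 signal (y axis) of the 8 measured genes on each array at E12.5, E13.5 and E14.5 (x axis), with filled symbols for array 1, open symbols for array 2, a colour and symbol shape for each probe of a gene, and lines through the stage means; the y axes differ between panels. Sycp1, Sycp2, Sycp3, Tex12, Hormad1, Smc1b and Stag3 climb steeply between E12.5 and E13.5. Between E13.5 and E14.5 Smc1b does not climb and the others climb less, whereas Syce2 starts at 3.35 and 3.68 and climbs little.

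The sequence just upstream of these genes is shown because 7 of the 8 measured rose together at E13.5 over E12.5. RefSeq promoter windows on GRCm38.p6 were found for all 9 genes, 10 windows in all since Syce2 has 2 starts, and the 250 bases before each start were searched on both strands for 5 short motifs. These were CACGTG, the E-box read by helix-loop-helix proteins such as MAX and MGA, GCGGGA, the core read by E2F proteins, AGGTCA, read by nuclear receptors, CNCCTCAG, the motif of STRA8, and TGACG, from the cyclic AMP response element. The E-box stood in 6 of the 10 windows, and in 6.02% of all 32851 windows of this length. It lay before Sycp1, Sycp3, Tex12, Hormad1, Stag3 and the downstream start of Syce2, with a pair of copies in Sycp3 and in Hormad1. The 6 windows with an E-box follow, and then that of Sycp2, a gene that rose several-fold and whose window held none of the 5 motifs. Each is written 5′ to 3′ along the gene, ending at the base before the start, with motif matches in capitals. For Sycp2, Stag3 and the downstream start of Syce2, the start used lies inside the annotated gene. Starts a few bases apart were counted once for the 9 genes but separately among all windows, so the shares are over unlike sets. The windows of the 2 Syce2 starts overlap.
Sycp1, chr3:102936101-102936350 (minus strand): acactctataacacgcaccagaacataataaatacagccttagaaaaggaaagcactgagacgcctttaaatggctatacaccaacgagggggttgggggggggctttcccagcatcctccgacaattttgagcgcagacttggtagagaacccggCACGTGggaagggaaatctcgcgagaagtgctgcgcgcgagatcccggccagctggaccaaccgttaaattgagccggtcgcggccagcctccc
Syce2, chr8:84872008-84872257 (plus strand): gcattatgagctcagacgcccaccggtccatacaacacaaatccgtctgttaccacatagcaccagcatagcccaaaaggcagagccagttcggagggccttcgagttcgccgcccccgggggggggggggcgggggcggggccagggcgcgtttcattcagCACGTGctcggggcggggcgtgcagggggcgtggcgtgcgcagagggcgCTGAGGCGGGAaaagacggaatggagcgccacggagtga
Tex12, chr9:50561269-50561518 (minus strand): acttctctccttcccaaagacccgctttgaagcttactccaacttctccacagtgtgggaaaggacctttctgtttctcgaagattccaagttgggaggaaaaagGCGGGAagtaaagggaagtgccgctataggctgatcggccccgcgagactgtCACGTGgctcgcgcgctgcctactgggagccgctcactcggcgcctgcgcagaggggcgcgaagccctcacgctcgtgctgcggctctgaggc
Sycp3, chr10:88459337-88459586 (plus strand): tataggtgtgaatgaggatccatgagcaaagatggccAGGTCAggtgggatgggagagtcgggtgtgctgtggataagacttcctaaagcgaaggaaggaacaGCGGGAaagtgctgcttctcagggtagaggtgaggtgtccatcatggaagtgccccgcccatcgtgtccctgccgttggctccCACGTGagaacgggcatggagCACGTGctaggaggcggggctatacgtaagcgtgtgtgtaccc
Hormad1, chr3:95559427-95559676 (plus strand): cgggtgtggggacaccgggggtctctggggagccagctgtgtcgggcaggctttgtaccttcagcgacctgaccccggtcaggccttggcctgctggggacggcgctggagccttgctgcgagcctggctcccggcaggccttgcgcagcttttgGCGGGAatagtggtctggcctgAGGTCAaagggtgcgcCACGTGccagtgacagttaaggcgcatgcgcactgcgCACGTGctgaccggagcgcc
Stag3, chr5:138280259-138280508 (plus strand): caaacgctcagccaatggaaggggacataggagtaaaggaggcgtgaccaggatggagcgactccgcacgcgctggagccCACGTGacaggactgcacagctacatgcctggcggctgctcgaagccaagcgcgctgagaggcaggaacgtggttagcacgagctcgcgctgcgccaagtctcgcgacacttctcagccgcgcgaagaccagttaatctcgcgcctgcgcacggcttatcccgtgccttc
Sycp2, chr2:178407659-178407908 (minus strand): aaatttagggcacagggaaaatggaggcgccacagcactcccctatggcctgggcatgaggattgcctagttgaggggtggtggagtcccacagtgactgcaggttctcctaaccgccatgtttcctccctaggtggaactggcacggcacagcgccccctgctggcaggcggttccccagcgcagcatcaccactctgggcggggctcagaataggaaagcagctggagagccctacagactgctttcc

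The E2F core stood in 6 of the 10 windows, those of Sycp3, Tex12, Hormad1, Smc1b and both starts of Syce2, and in 16.9% of all windows. In the sequences above, the E-box of Sycp1 lies 94 to 89 bases before its start and that of Tex12 93 to 88 bases before its own. Sycp3 has its copies 64 to 59 and 43 to 38 bases upstream, and Hormad1 57 to 52 and 20 to 15. AGGTCA occurred before Sycp3 and Hormad1 alone among the 9 genes, against 14.02% of all windows. The STRA8 motif occurred once, at the downstream start of Syce2, where it overlaps an E2F core, and in 6.42% of all windows. TGACG stood before Syce1 and the upstream start of Syce2, and in 17.8% of all windows. The windows of the 9 genes were 53.2% to 68.0% G and C, and the median of all windows was 52.4%. These are letter matches and were not tested for binding.

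**Figure D2:**
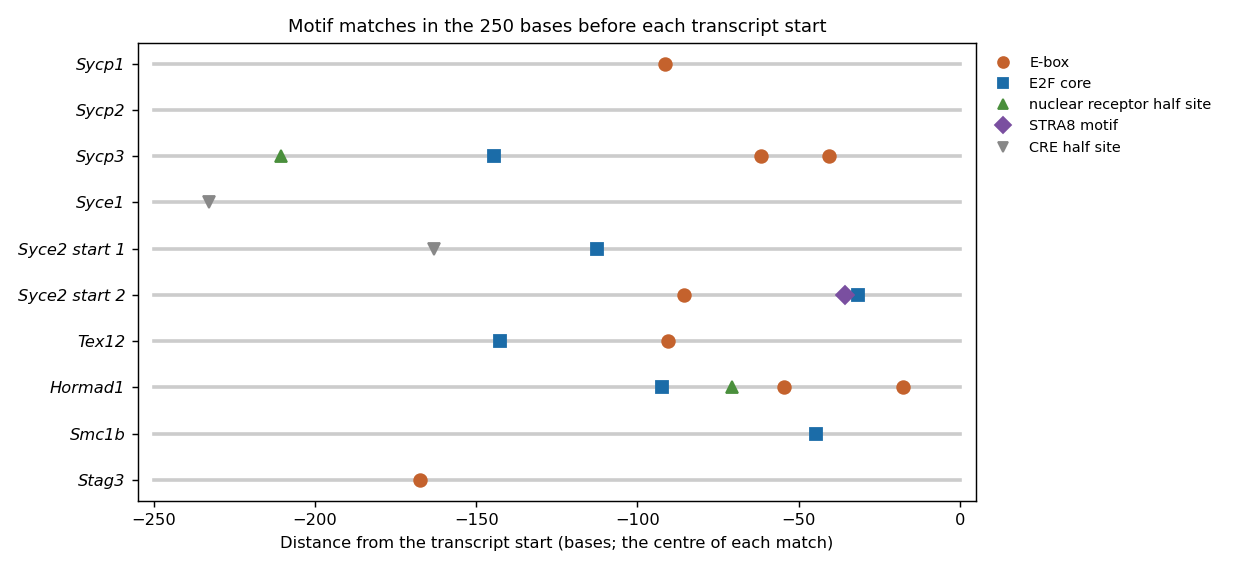
Position of each motif match (x axis, bases before the transcript start, by the centre of the match) in the 10 promoter windows of the 9 genes (1 line each), with a colour and shape for each of the 5 motifs. E-box matches stand in 6 windows, 1 or 2 to a window, and the Sycp2 window holds no match.

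The transverse filament protein SYCP1 spans the gap between paired chromosomes. Sycp1 had relative log2 signals of -2.31 and -1.62 on the E12.5 arrays, -0.06 and 0.46 on the E13.5 arrays, and 0.92 and 0.87 on the E14.5 arrays. The 3 stages did not overlap. Sycp1 rose at E13.5 over E12.5 by 2.17 ± 0.27 on the log2 scale (SE from limma, adjusted p 0.0048), which is 4.49-fold. At E14.5 over E13.5 the difference was 0.69 ± 0.27 (adjusted p 0.255), and at E14.5 over E12.5 Sycp1 rose 7.27-fold (adjusted p 0.00116).

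The central element holds the zipper together along its midline, and Syce2 and Tex12 encode partners in that element that bind each other. Syce2 changed least of the 8, and Tex12 several-fold. Syce2 gave 3.35 and 3.68 on the E12.5 arrays, 3.98 and 3.87 on the E13.5 arrays, and 4.19 and 4.03 on the E14.5 arrays, on the relative log2 scale. The later arrays were all above the E12.5 arrays, but by little, and Syce2 was the 1 measured gene of the group that did not pass at E13.5 over E12.5, at 0.41 ± 0.15 (adjusted p 0.0774). At E14.5 over E12.5 Syce2 rose 1.51-fold, by 0.60 ± 0.15 (adjusted p 0.0194). Leaving out the first E12.5 array ended that call (0.43, adjusted p 0.0687), as did leaving out the first E14.5 array (0.52, adjusted p 0.0818) and scaling each array to its median (0.45, adjusted p 0.0847). Its first step passed only with a trended, robust variance prior (adjusted p 0.0353) among the 15 other settings tried.

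Tex12 was read by a pair of probes. The brighter gave relative log2 signals of -0.45 and 0.09 on the E12.5 arrays, 1.60 and 1.79 on the E13.5 arrays, and 1.999 and 2.15 on the E14.5 arrays. The dimmer gave -1.67 and -1.29, 0.33 and 0.50, and 0.72 and 0.84 at the same stages. Both probes stepped up with no overlap between stages. Tex12 rose by 1.87 ± 0.20 at E13.5 over E12.5 on the brighter probe (3.66-fold, adjusted p 0.00345), and by 1.89 ± 0.17 on the dimmer in the fit over probes (adjusted p 0.00441). At E14.5 over E13.5 the brighter probe differed by 0.38 ± 0.20 (adjusted p 0.361). Tex12 rose 4.76-fold at E14.5 over E12.5 (adjusted p 0.000946).

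The lateral element genes Sycp2 and Sycp3 had the largest changes of the 8 at E14.5 over E12.5. Their order depended on the background correction and on the Sycp2 probe. SYCP3 forms the filament core of the lateral element, and its gene had relative log2 signals of -1.31 and -1.04 on the E12.5 arrays, 0.77 and 1.27 on the E13.5 arrays, and 1.89 and 2.23 on the E14.5 arrays. Every later array was above every earlier one. Sycp3 rose by 2.19 ± 0.22 at E13.5 over E12.5 (4.57-fold, adjusted p 0.00309) and by 3.24 ± 0.22 at E14.5 over E12.5 (9.42-fold, adjusted p 0.000616). Its step within the slide, E14.5 over E13.5, was 1.04 ± 0.22 (2.06-fold, 95% confidence interval 0.51 to 1.57, adjusted p 0.105). That step passed with normexp background correction (1.02, adjusted p 0.0178) and with a trended, robust variance prior (adjusted p 0.0404), the 2 of 15 other settings under which any of the 8 genes passed between E13.5 and E14.5.

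SYCP2 binds SYCP3 in the lateral element. On the brightest of its 3 probes Sycp2 gave -3.85 and -3.61 on the E12.5 arrays, -1.88 and -0.71 on the E13.5 arrays, and -0.41 and -0.0018 on the E14.5 arrays. The E13.5 pair lay farther apart than any other pair of duplicates in the group. Sycp2 rose by 2.44 ± 0.38 at E13.5 over E12.5 (5.41-fold, adjusted p 0.00819) and by 3.53 ± 0.38 at E14.5 over E12.5 (11.5-fold, adjusted p 0.00162). Its E14.5 over E13.5 difference was 1.09 ± 0.38 (adjusted p 0.219). With normexp background correction Sycp2 rose 7.22-fold at E14.5 over E12.5, less than Sycp3 at 9.77-fold, and 3.61-fold at E13.5 over E12.5, less than Sycp1 at 4.38-fold. With the mean of its probes it rose 8.13-fold at E13.5 over E12.5. That mean takes in the dimmest probe, which was not well above background at E12.5, so the size of this rise is uncertain.

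The next Sycp2 probe gave -5.31 and -5.18 on the E12.5 arrays, -2.60 and -2.27 on the E13.5 arrays, and -2.13 and -2.07 on the E14.5 arrays. On this probe duplicates lay closer together, and Sycp2 rose 7.01-fold at E13.5 over E12.5 (adjusted p 0.00254) with a difference of 0.33 ± 0.15 at E14.5 over E13.5 (adjusted p 0.376). At E14.5 over E12.5 Sycp2 rose 8.84-fold on it (adjusted p 0.00103), less than Sycp3 at 9.42-fold. The dimmest Sycp2 probe was not well above background on either E12.5 array and was so on the 4 later ones. It was kept only through those later arrays, where it is high, so no p-value is given for it. On that probe Sycp2 rose at least 4.68-fold at E13.5 over E12.5 and at least 6.09-fold at E14.5 over E12.5. These bounds set the later mean against, for each E12.5 array, the higher of the probe's own signal and the dimmest signal flagged as well above background. The brightest and the next probe thus share the direction of the first step. They differ in the size of the second, 1.09 on the brightest and 0.33 on the next, and that difference was not tested.

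HORMAD1 coats chromosome axes that have not yet paired. The brighter of the pair of Hormad1 probes gave relative log2 signals of -1.59 and -0.86 on the E12.5 arrays, 0.29 and 0.50 on the E13.5 arrays, and 0.65 and 0.75 on the E14.5 arrays. Hormad1 rose by 1.62 ± 0.24 at E13.5 over E12.5 (3.07-fold, adjusted p 0.00763) and by 1.92 ± 0.24 at E14.5 over E12.5 (3.79-fold, adjusted p 0.00254). The dimmer probe gave -3.49 and -2.99 on the E12.5 arrays, -1.60 and -1.67 on the E13.5 arrays, and -1.65 and -1.43 on the E14.5 arrays. On it the E14.5 and E13.5 arrays overlapped, with a difference of 0.09 ± 0.19 (adjusted p 0.852), while the brighter probe gave 0.31 ± 0.24 (adjusted p 0.542).

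Both meiotic cohesin subunits rose at E13.5 over E12.5. SMC1B takes the place of SMC1A in meiotic cohesin, and Smc1b had relative log2 signals of 2.39 and 2.63 on the E12.5 arrays, 4.06 and 3.85 on the E13.5 arrays, and 3.97 and 3.87 on the E14.5 arrays. The E14.5 arrays lay inside the range of the E13.5 arrays. Smc1b rose by 1.45 ± 0.14 at E13.5 over E12.5 (2.73-fold, adjusted p 0.00294), and its E14.5 over E13.5 difference was -0.04 ± 0.14 (95% confidence interval -0.38 to 0.29, adjusted p 0.901). STAG3 is the meiotic counterpart of STAG1 and STAG2. Stag3 had 1.996 and 2.02 on the E12.5 arrays, 3.48 and 3.78 on the E13.5 arrays, and 3.81 and 4.09 on the E14.5 arrays. It rose by 1.62 ± 0.15 at E13.5 over E12.5 (3.08-fold, adjusted p 0.00294) and 3.84-fold at E14.5 over E12.5 (adjusted p 0.000745), with 0.32 ± 0.15 between E14.5 and E13.5 (adjusted p 0.324).

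**Figure D3:**
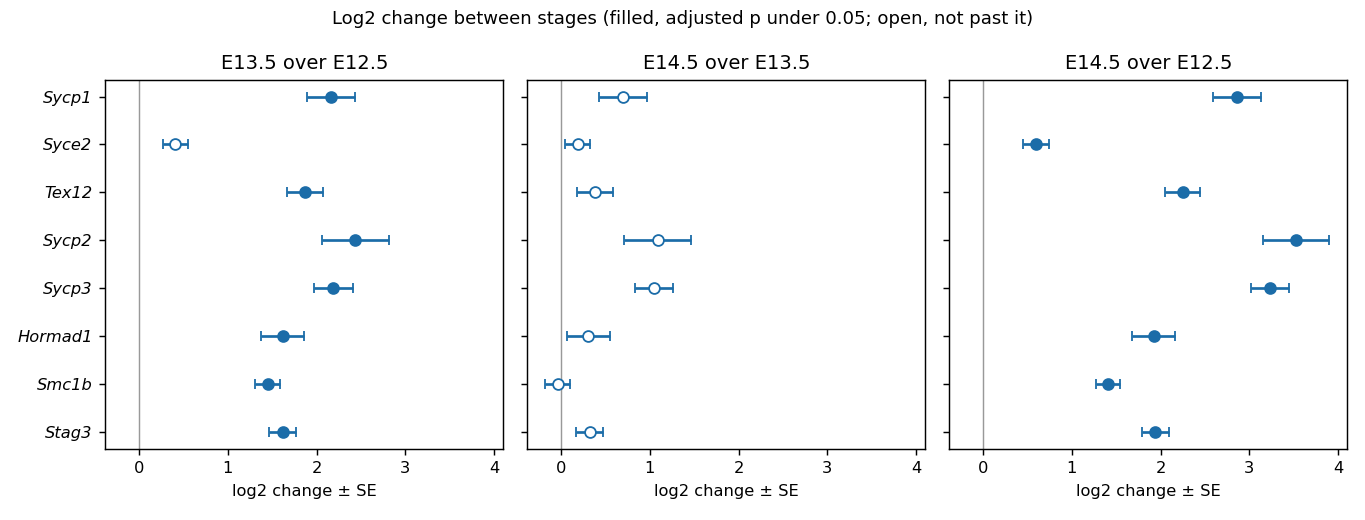
Log2 change with its SE (x axis) of the 8 measured genes (rows) in each of the 3 stage comparisons (panels), with filled points for an adjusted p under 0.05 and open points otherwise. All points but Syce2 are filled at E13.5 over E12.5, none at E14.5 over E13.5, and all at E14.5 over E12.5.

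Most of the change between E12.5 and E14.5 was in place at E13.5, to an extent that varied between genes and was not tested between them. The share of the log2 change reached at E13.5 was 103% for Smc1b, 84.1% for Hormad1, 83.5% for Stag3 and 83.0% for Tex12. It was 75.7% for Sycp1, 69.1% for Sycp2, 68.8% for Syce2 and 67.7% for Sycp3. The share of Sycp2 was 89.4% on its next probe, and on the brightest it ran from 52.6% to 85.6% with 1 array left out, so its place in this order is not settled. The median of the 8 was 79.4%. Among the 1251 genes that rose at least 2-fold over the whole window the median was 67.3%, with quartiles of 52.4% and 81.1%. The contrast of the second step against the first, chosen after the values were seen, was negative for all 8 genes, and 0 of 8 passed with limma (6 of 8 at an unadjusted p under 0.05, and 1565 of all 13484 genes), where 0.267% of all genes passed in that direction and 0.222% in the other. The lowest adjusted p was that of Smc1b, at -1.49 ± 0.24 (adjusted p 0.0649), followed by Stag3 at -1.30 ± 0.26 (adjusted p 0.0852) and Tex12 at -1.49 ± 0.34 (adjusted p 0.102). The first step crosses the slides and the second does not.

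The arrays of the group overlapped little. All 8 genes had both E13.5 arrays above both E12.5 arrays, which 39.5% of all genes did, and all 8 had both E14.5 arrays above both E12.5 arrays, which 39.7% did. Within the slide, 7 of the 8, all but Smc1b, had both E14.5 arrays above both E13.5 arrays, and 27.3% of all genes did.

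Other genes of the synaptonemal complex and the axis were read as well. Of 12 more such genes listed, 5 were measured, and 3 of them rose and 1 fell at E14.5 over E12.5, where 25.5% of all genes rose and 21.2% fell. Six6os1, listed as 4930447C04Rik, encodes a further central element protein and had relative log2 signals of -1.25 and -1.13 on the E12.5 arrays, 1.08 and 1.66 on the E13.5 arrays, and 1.91 and 2.42 on the E14.5 arrays. It rose 10.2-fold at E14.5 over E12.5 on its brightest probe and by 2.46 and 2.30 on the log2 scale on its other probes. Rec8, the meiotic kleisin that closes the cohesin ring, rose by 2.52 ± 0.20, and Fkbp6, which encodes an immunophilin found on synapsed chromosomes, by 2.15 ± 0.14. Trip13, the ATPase that strips HORMAD proteins from the axis and also acts in mitosis, fell by 0.44 on the log2 scale (adjusted p 0.046), a call that leaving out any E12.5 or E14.5 array ended. Mei4, needed for meiotic DNA breaks, was well above background on 3 of 6 arrays and differed by 0.23 ± 0.27.

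The genes that tie meiotic telomeres to the nuclear envelope were measured for 3 of 6 listed, and all 3 rose at E14.5 over E12.5. In that comparison 25.5% of all genes rose. Terb1, part of the meiotic telomere complex, was not well above background on either E12.5 array and rose at least 20.0-fold. It was kept only through the later stages, where it is high. Kash5, the outer envelope adaptor to dynein, rose by 3.28 ± 0.23 on its brightest probe and at least 1.92-fold on its other probe, which was not well above background on either E12.5 array. Sun1, its inner envelope partner, rose by 0.52 ± 0.12, a call that was lost with median scaling (0.37, adjusted p 0.0762), when the second E12.5 array was left out (0.45, adjusted p 0.0632) and when the first E14.5 array was (0.44, adjusted p 0.0668). Stra8 itself rose by 2.45 ± 0.17 at E13.5 over E12.5 and by 2.95 ± 0.17 at E14.5 over E12.5 (adjusted p 0.000505), with 0.50 ± 0.17 at E14.5 over E13.5 (adjusted p 0.219).

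Genes of the cohesin that all dividing cells use went both ways. Of 18 listed subunits and regulators, 15 were measured, and at E14.5 over E12.5 the counts were 2 that rose, 7 that fell and 6 that did not pass, with a median log2 change of -0.22. Over all genes 25.5% rose and 21.2% fell. Leaving out 1 array left 2 to 4 falls and 0 or 1 rises of the 15. Calls over all genes were then fewer too, at 3937 to 5449, so these counts do not set the group apart. Smc1a, the counterpart of Smc1b, had 4.17 and 4.12 on the E12.5 arrays, 3.94 and 3.98 on the E13.5 arrays, and 3.98 and 3.86 on the E14.5 arrays, a difference of -0.22 ± 0.10 at E14.5 over E12.5 (adjusted p 0.124). Rad21, the kleisin that Rec8 replaces, had 5.17 and 5.10 on the E12.5 arrays, 5.003 and 4.82 on the E13.5 arrays, and 4.78 and 4.68 on the E14.5 arrays. It fell by 0.40 on the log2 scale on its brightest probe and by 1.68 on its other probe.

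Stag1 fell by 0.36 on its brightest probe (adjusted p 0.0353), with -0.53, -0.02 and 0.24 on its other probes. Stag2 differed by -0.05 ± 0.14 on its brighter probe (adjusted p 0.795) and by -0.55 ± 0.18 on its other probe (adjusted p 0.0575). Smc3, which both kinds of cohesin share, fell by 0.41 on its brighter probe (adjusted p 0.0213) and by 0.73 on its other probe (adjusted p 0.0134). Leaving out any E12.5 or E14.5 array ended the calls of Rad21, Stag1 and Smc3 on their brightest probes. The largest falls were those of Sgo2a, a shugoshin that protects cohesin from cleavage, by 0.86, and Cdca5, the cohesion factor sororin, by 0.83. Neither passed on its other probe, at -0.37 for Sgo2a (adjusted p 0.408) and -0.40 for Cdca5 (adjusted p 0.0598). Hdac8, the SMC3 deacetylase, and Mau2, part of the cohesin loader, were the 2 that rose, by 0.55 and 0.39, and neither rise passed with each array scaled to its median. The direct difference between a meiotic subunit and its counterpart was not tested.

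Of 6 genes measured of condensin, a related SMC complex, 1 rose and 3 fell at E14.5 over E12.5, the largest change being that of Smc2, which fell by 1.30 on the log2 scale. Of 5 genes of the SMC5/6 complex 2 fell, and Nsmce3 fell by 1.25. Leaving out 1 array left 0 rises and 1 or 2 falls in condensin and 1 fall in SMC5/6, Smc2 and Nsmce3 among them. Beside the 25.5% of all genes that rose and the 21.2% that fell, these counts do not set either complex apart.

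**Figure D4:**
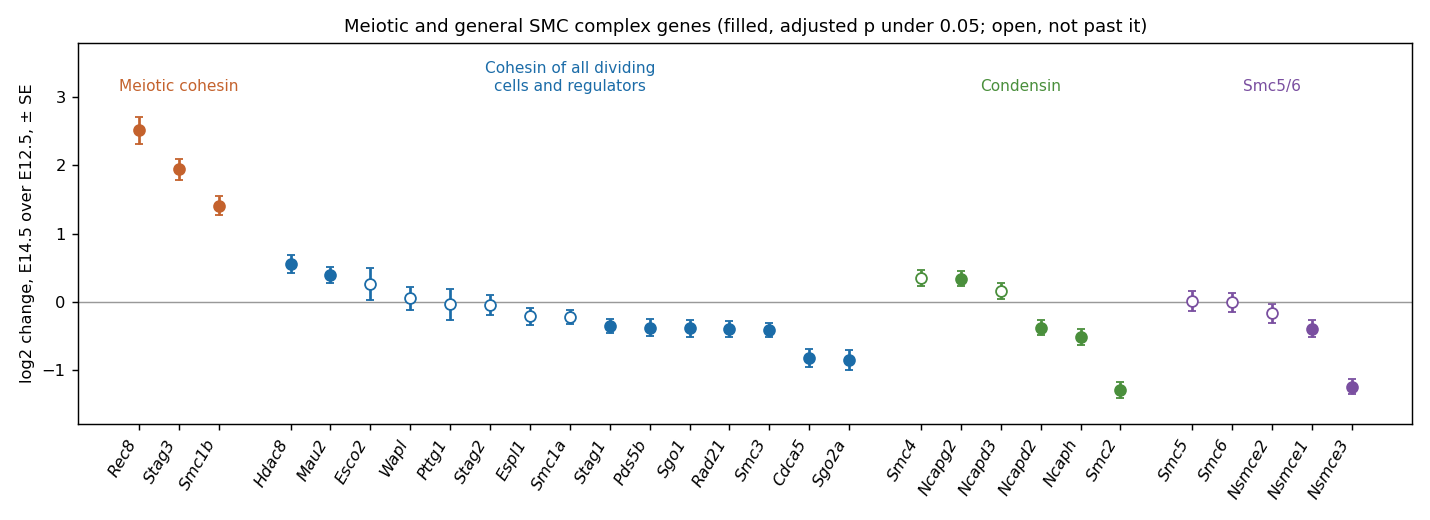
Log2 change at E14.5 over E12.5 with its SE (y axis) for meiotic cohesin, cohesin of all dividing cells with its regulators, condensin and the SMC5/6 complex (x axis, genes by complex), with filled points for an adjusted p under 0.05. Rec8, Stag3 and Smc1b lie between 1.41 and 2.52, above every other gene drawn, of which Hdac8 is the highest at 0.55.

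Markers of the cells that could carry these genes were read on the same arrays. All 12 germ cell markers listed were well above background on all 6 arrays. Their summed linear signal, in units of the array's 75th percentile, was 48.3 to 59.5 at E12.5, 81.0 to 84.8 at E13.5 and 65.6 to 80.3 at E14.5, and its arrays did not overlap between E12.5 and either later stage. Single germ cell markers went both ways at E14.5 over E12.5, with 4 that rose, 4 that fell and 4 that did not pass. Over all genes 25.5% rose and 21.2% fell. On the log2 scale Mael rose by 1.88, Tdrd1 by 1.81, Ddx4 by 1.05 and Dazl by 0.84. The other Dazl probe differed by -0.29, and with the mean of its probes Dazl did not pass in limma (0.27, adjusted p 0.25). Tfap2c, a marker of early germ cells, fell by 4.65, Prdm1 by 1.99, Kit by 0.93 and Dnd1 by 0.63.

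Ddx4, the germ cell helicase, had relative log2 signals of 2.91 and 2.95 on the E12.5 arrays, 3.98 and 3.90 on the E13.5 arrays, and 4.04 and 3.91 on the E14.5 arrays. Ddx4 (1.05) and Mael (1.88) are among the 4 germ cell markers that rose at E14.5 over E12.5. The median of all 12 was -0.29, so Ddx4 and Mael do not stand for the whole list. Beside the log2 changes of Ddx4 and Mael, that of Syce2 (0.60) was below both and that of Smc1b (1.41) between them. Hormad1 (1.92) and Stag3 (1.94) were near Mael, and Tex12, Sycp1, Sycp3 and Sycp2 were above it, at 2.25 to 3.53. These differences were not tested. Somatic markers moved too, and all 6 Sertoli cell markers, which mark the testis, were well above background on all 6 arrays. Those 6 include Cyp26b1, the targeted gene, whose probe does not check the deletion. At E14.5 over E12.5, 5 of 5 fetal Leydig cell markers measured rose, with a sum of 60.1 to 80.4 at E14.5 and 2.57 to 3.62 at E12.5. Lhcgr among them was not well above background on either E12.5 array, so it was kept only through the later stages. Of 6 Sertoli cell markers 3 fell, of 6 markers of the mesonephros and ducts 4 fell and 1 rose, and of 6 erythroid markers 4 fell. The Sertoli falls were those of Sox9, Fgf9 and the targeted Cyp26b1. Of 5 pregranulosa markers 1 rose and of 5 macrophage markers 3 rose, while 2 of 6 endothelial markers fell. Over all genes 25.5% rose and 21.2% fell, and the pregranulosa and endothelial counts do not stand apart from those shares. Leaving out 1 array moved each marker count by at most 1. That could take away the Dazl rise, the Dnd1 fall, the Cyp26b1 fall, a macrophage rise, an endothelial fall or the mesonephros rise. Leaving out 1 array could also add a fall of the germ cell markers Nanos3 or Sox2, an erythroid rise or a pregranulosa fall. The part of these shifts in the values of the 8 genes was not tested.

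The genes whose course over the 6 arrays was most like that of the group were found by the root mean square difference between array values centred on their own mean. The mean course of the 8 was -1.51 and -1.12 on the E12.5 arrays, 0.25 and 0.57 on the E13.5 arrays, and 0.84 and 0.97 on the E14.5 arrays. Among genes outside the group the nearest were Mfap4, at a difference of 0.066, Kcng4 at 0.098, Rasgef1c at 0.105, Acta2 at 0.108 and Oasl2 at 0.111. The next were Fhl4, Myoz2, Caskin1, Mlc1 and 1700028K03Rik, at 0.113 to 0.124. Tex12 was the nearest of the 8, at 0.087, and Syce2 the farthest, at 0.719. The likeness is over 6 arrays of 3 stages that differ in slide.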

How the data were processed

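RNA of 6 arrays was analysed. Per the file headers, the deposited scanner files hold each spot's intensity, background-subtracted by Agilent Feature Extraction 9.5 and not scaled between arrays. The authors' deposited table gives, for every probe and stage, a linear ratio whose reference is unstated, with column medians of 0.963, 1.04 and 1.01. Its log2 differences between stages matched the scanner values of 25605 probes up to a constant offset, and it was used for that check alone.

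Spot outliers were left out, repeated spots averaged, log2 taken and each array's 75th percentile subtracted. Probes were named by RefSeq accession (23545 of 41153). The brightest probe stood for a gene, and a gene was kept if some stage had it well above background on both arrays. The stage comparisons used limma 3.58.1 under R 4.3.3 (lmFit and eBayes without a trend, all 6 arrays, two-sided) with Benjamini-Hochberg adjustment over 13484 genes. The scripts were tested on simulated data. Promoters came from RefSeq tables of GRCm38.p6.

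The members and gene lists were chosen with earlier results of these data known. The genes named are the 9 members, Rec8, Stra8, the Cyp26b1 target, the lists of other axis and telomere genes, up to 4 called genes of each further list by size of change, the counterparts of the meiotic subunits, genes that spell out counts of 5 or fewer, and the 10 nearest courses. The array numbers are file numbers. Same-numbered arrays deviated together with correlations of -0.04, 0.23 and -0.06 across genes in the 3 pairs of stages, so they were not treated as pairs. Alternatives were normexp (offset 50), quantile and median scaling, other filters, the mean of probes, another prior, blocks, fewer arrays and leaving out each array. The number of arrays limits the precision.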

Additional observations from a re-analysis of the deposited data

How the results depend on the processing

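Of the 8 genes, 7 were called at E13.5 over E12.5 under every setting tried except the trended, robust prior, which added Syce2, and no log2 change of a called gene reversed. The calls of all genes moved more. Genes called at E13.5 over E12.5 numbered 4318, and 2865 with no background filter, and ranged from 1395 to 3971 when 1 array was left out. At E14.5 over E12.5 they numbered 6299, and 3937 to 5449 with 1 array left out. At E14.5 over E13.5 they numbered 7, and 400 with normexp, 95 with median scaling, 333 with a trended, robust prior, 1 with the replicate block, and 0 with no filter, with the filter on all 6 arrays, with the mean of probes or with the 4 arrays alone, and 0 to 42 with 1 array left out. Of the 8 genes, 1 was called there with normexp and 1 with the trended, robust prior, both times Sycp3. Median scaling moved the median of all genes at E14.5 over E12.5 to -0.12, against 0.03, and the share of calls that were higher to 41.1%, against 54.7%. The median of the 8 moved by the same step, to 1.95, against 2.10. Sycp2 at E14.5 over E12.5 was 2.85 with normexp, against 3.53. Higher calls at E14.5 over E13.5 were 6 of 7, and 3 of 5 with quantile scaling. The replicate block changed no call of the 8 genes. Apart from the settings' own construction, the cause of these shifts was not tested. A slide block repeats the main model, since the E12.5 slide is the E12.5 stage, so it tests nothing.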
